A study of Mus musculus with 20 samples.

Results

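The genes described here are 10 activity-regulated secreted factors and plasticity genes, taken by symbol and matched to 10 of the 46078 Ensembl genes of the count tables. They are the neurotrophin Bdnf and its receptor Ntrk2, the granins Vgf and Scg2, the activin subunit Inhba, the neuronal pentraxins Nptx1 and Nptx2, the cerebellin Cbln4, the postsynaptic scaffold Homer1 and the growth cone protein Gap43. They were measured by bulk RNA sequencing of polyadenylated RNA from 20 libraries of aged mouse brain, 4 groups of 5. All mice were wild-type C57BL/6J animals aged 18 months with a DH stroke, in which a distal branch of the middle cerebral artery is occluded and the animal is then kept under hypoxia, and tissue was taken 7 weeks later. Mice were injected under the skin with sterile PBS (vehicle) or with 4 g/kg HPBCD, hydroxypropyl-β-cyclodextrin, a ring of sugars that binds cholesterol. Injections were given 3 times per week for 6 weeks and began 1 week after the stroke. The 2 regions were the peri-infarct tissue, dissected after the infarct itself had been removed, and the matching tissue of the contralateral hemisphere. All groups therefore come from mice with a stroke, so the contralateral libraries are a control region of injured animals and not uninjured brain.

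Neurons release many of these proteins, and make more of their mRNA, when they are active. BDNF is a secreted neurotrophin that signals through the receptor tyrosine kinase TrkB, the product of Ntrk2. VGF and secretogranin II, the product of Scg2, are sorted into dense-core vesicles and cut into peptides there. The pentraxins gather AMPA-type glutamate receptors at excitatory synapses, and cerebellins bridge presynaptic neurexins to postsynaptic receptors. Homer1 links glutamate receptors to the postsynaptic density, and GAP43 is a membrane protein of growing axons that is used as a marker of axonal sprouting. Ntrk2 differs from most of the others in its cells of origin, since astrocytes as well as neurons make it, in large part as a truncated receptor without a kinase domain.

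In GRCm38 the members were Bdnf (ENSMUSG00000048482, chr2:109674700-109727007, plus strand), Ntrk2 (ENSMUSG00000055254, chr13:58806569-59133970, plus strand), Vgf (ENSMUSG00000037428, chr5:137026392-137033351, plus strand), Scg2 (ENSMUSG00000050711, chr1:79434669-79440120, minus strand), Inhba (ENSMUSG00000041324, chr13:16011851-16031621, plus strand), Nptx1 (ENSMUSG00000025582, chr11:119538719-119547753, minus strand), Nptx2 (ENSMUSG00000059991, chr5:144545902-144557478, plus strand), Cbln4 (ENSMUSG00000067578, chr2:172036233-172043466, minus strand), Homer1 (ENSMUSG00000007617, chr13:93299635-93405129, plus strand) and Gap43 (ENSMUSG00000047261, chr16:42248442-42340651, minus strand). Counts were made per gene over its exons. The short, activity-induced form of Homer1 and the truncated form of Ntrk2 are therefore not separated from the long forms. Bdnf shares 896 exonic bases with the antisense gene Gm45346, and the strand setting of the counting was not given in the sources used here, so Bdnf counts may hold reads of that gene. The exons of the other 9 members overlap no other annotated gene.

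Gene counts per library were 14445021 to 22171627, with a median of 19008532, at which 3 counts equal 0.135 to 0.208 CPM, the count scaled to library size. The contralateral library of HPBCD replicate 4 stood apart in its counting, with 8.03% of read pairs ambiguous against 3.94 to 4.16% in the other 19 libraries. The contralateral library of vehicle replicate 1 stood apart in its regional markers. Its 8 striatum markers (such as Drd1, Drd2 and Ppp1r1b) summed to 3377 CPM, against 197 to 283 CPM in the other 4 of its group. Among HPBCD peri-infarct libraries replicate 2 stood apart. Its 6 hippocampus markers, such as Prox1 and Wfs1, summed to 573 CPM against 280.4 to 329.6 in the other 4, its striatum markers to 645 against 1455 to 2005, and its 7 excitatory cortical neuron markers, such as Slc17a7, to 6001 against 2838 to 4479 CPM. Among vehicle peri-infarct libraries replicate 3 stood apart, with 7 microglia and macrophage markers at 1517 CPM against 519.7 to 914 in the other 4, 7 astrocyte markers at 10265 against 5674 to 7508, striatum markers at 1911 against 333 to 1249 and pan-neuronal markers at 6624 against 7785 to 9159 CPM. In HPBCD peri-infarct replicate 4 the pan-neuronal markers summed to 3829 CPM against 4822 to 6759.8 in the other 4 of its group. Its microglia and macrophage markers summed to 1836 against 859 to 1427 CPM, and its astrocyte markers to 11206 against 8114 to 9247 CPM. All 10 pan-neuronal markers, such as Rbfox3 and Snap25, were above 0 in every library. All 10 members passed the filter on low counts in every comparison.

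Promoter sequence is shown for 4 members that fell beside the infarct in HPBCD mice, of which Scg2 and Cbln4 also fell in vehicle mice. The windows printed were chosen because they hold a core of the element bound by the transcription factor CREB, the cyclic AMP response element (CRE), and several activity-regulated genes are known targets of this factor. RefSeq promoter windows of GRCm38.p6, running from 250 bases before to 50 bases after an annotated start, were at hand for 6 of the 10 members and numbered 13. The 120 bases before the start are printed 5′ to 3′ on the strand of the gene, with CRE cores in capitals (CGTCA, or TGACG where the core lies on the other strand). They are Scg2 (chr1:79440027-79440146, minus strand), Bdnf window 3 of 7 (chr2:109692316-109692435, plus strand), Homer1 window 1 of 2 (chr13:93303637-93303756, plus strand) and Cbln4 (chr2:172043467-172043586, minus strand).
Scg2: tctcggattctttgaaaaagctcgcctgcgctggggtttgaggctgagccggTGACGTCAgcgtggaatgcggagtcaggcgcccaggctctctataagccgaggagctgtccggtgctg
Bdnf: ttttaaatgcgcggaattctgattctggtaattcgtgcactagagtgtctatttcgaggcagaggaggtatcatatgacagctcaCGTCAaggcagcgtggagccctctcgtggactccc
Homer1: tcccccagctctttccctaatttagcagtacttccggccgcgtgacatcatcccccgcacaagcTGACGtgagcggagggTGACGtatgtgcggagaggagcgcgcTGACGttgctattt
Cbln4: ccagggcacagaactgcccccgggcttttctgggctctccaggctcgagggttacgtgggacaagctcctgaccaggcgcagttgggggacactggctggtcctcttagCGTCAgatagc

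In the Scg2 window the capitals form the full palindromic CRE, TGACGTCA, at positions -68 to -61 from the start. The full element was found on either strand in 588 of all 32851 mouse windows (1.79%), and among the members in the Scg2 window alone. The core CGTCA, which lies inside the full element, was found in 20.8% of all windows and in 4 of the 13 member windows, 1 each of Scg2, Bdnf, Homer1 and Cbln4. The Bdnf core lies at -35 to -31, the 3 Homer1 cores lie at -56 to -52, -40 to -36 and -14 to -10, and the Cbln4 core lies at -11 to -7. An AP-1 element, TGANTCA on either strand, was present in 7.81% of all windows and in Bdnf window 2 at -152 to -146. Vgf, Nptx1, Nptx2 and Gap43 were not searched.

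**Figure D1:**
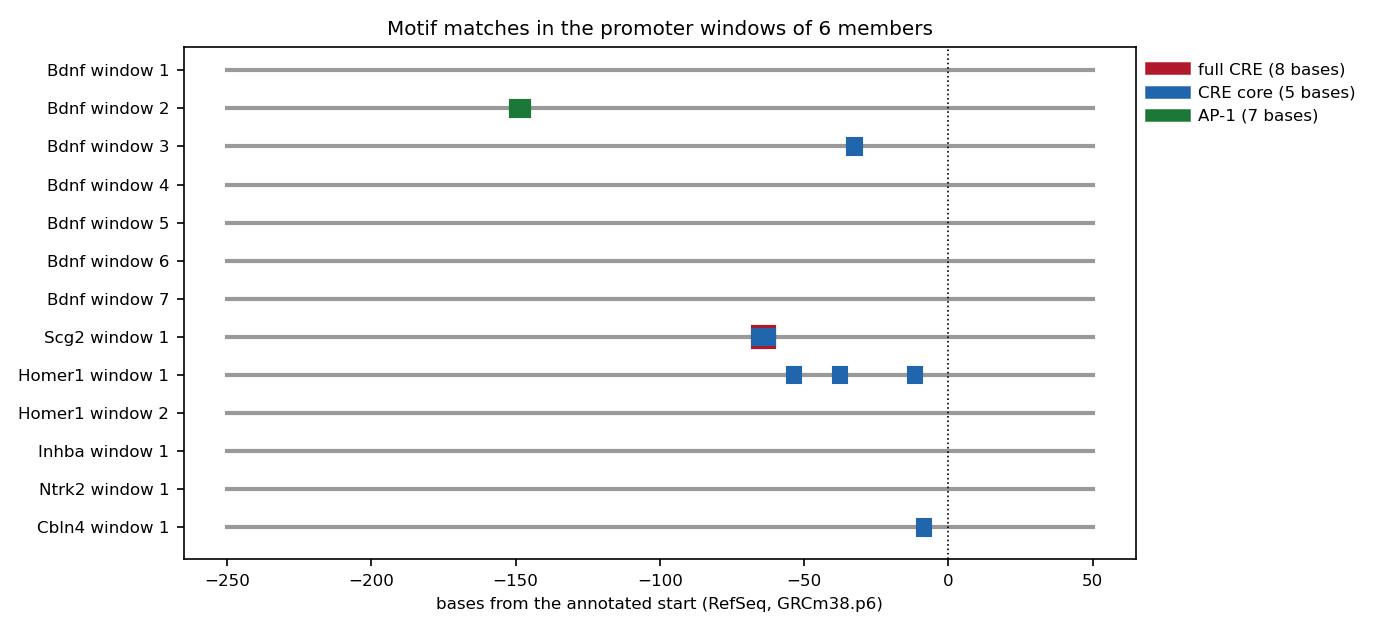
Positions of CRE and AP-1 letter matches (coloured boxes) in the 13 RefSeq promoter windows of 6 members (grey lines), in bases from the annotated start (dotted line). Matches fall in 5 windows, and the Scg2 window holds the 1 full CRE.

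Levels were first compared between the members per length, as length-scaled transcript levels (TPM). In vehicle peri-infarct tissue Gap43 was the most abundant member at 558 ± 132 TPM (SD, n = 5). It was followed by Vgf at 276 ± 32.1, Nptx1 at 258 ± 86.3, Scg2 at 215 ± 47.4 and Ntrk2 at 153 ± 25 TPM, neighbours whose ranges overlapped. Nptx2 stood at 54.3 ± 9.23, Homer1 at 38.4 ± 6.62, Bdnf at 16.9 ± 4.09 and Cbln4 at 6.16 ± 2.47 TPM, of which only the first 2 overlapped. Inhba was the least abundant at 1.37 ± 0.364 TPM. Gap43 ranked highest and Inhba lowest in the means of all 4 groups, while Ntrk2 ranked 5 in both vehicle groups and 2 in HPBCD peri-infarct tissue.

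**Figure D2:**
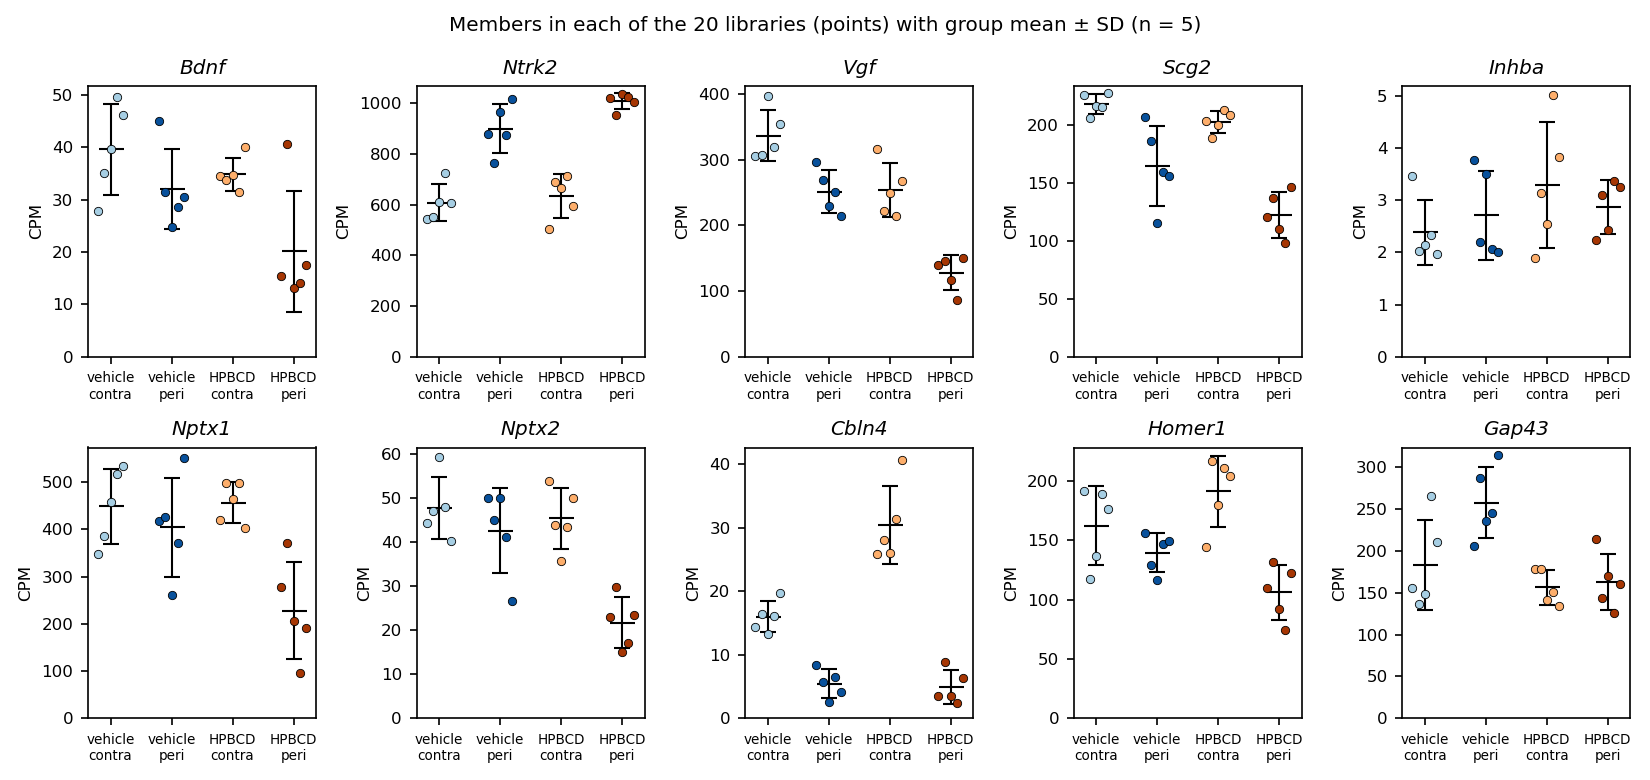
CPM of the 10 members (linear axes from 0) in each of the 20 libraries, by region and treatment, with points for libraries in replicate order and bars for mean ± SD (n = 5). Ntrk2 is higher and Cbln4 lower in peri-infarct (peri) than in contralateral (contra) libraries of both treatments, and Vgf in HPBCD peri-infarct libraries lies below all other libraries.

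The first comparison set peri-infarct against contralateral tissue in vehicle mice. Of the 10 members 4 passed the edgeR test at an adjusted p-value under 0.05. Vgf, Scg2 and Cbln4 fell and Ntrk2 rose. In bulk tissue, fewer cells of a type and less RNA per cell cannot be told apart. Over all 15801 genes tested, 20.2% passed, 10.5% higher and 9.70% lower in peri-infarct tissue. The groups did not overlap for 3 members (Vgf, Cbln4 and Ntrk2), against 13.4% of all genes. The members' median log2 fold change was -0.20, against 0.01 over all genes tested.

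Cbln4 had the largest fold change of the members. Its CPM in vehicle replicates 1 to 5 was 14.4, 16.5, 13.3, 16.1 and 19.8 in contralateral and 8.47, 5.64, 2.6, 6.51 and 4.07 in peri-infarct tissue. The highest peri-infarct library was well under the lowest contralateral library (log2 fold change -1.56 ± 0.25, SE, adjusted p = 0.00295). The receptor gene Ntrk2 went the other way. Its CPM was 545, 554, 610.3, 725 and 606 in contralateral and 878, 763, 968, 875 and 1016 in peri-infarct tissue of replicates 1 to 5. All peri-infarct libraries were above all contralateral ones (log2 fold change 0.55 ± 0.10, SE, adjusted p = 0.00447).

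Both granins were modestly lower. Vgf CPM in replicates 1 to 5 was 305, 307, 397, 319.8 and 355 in contralateral and 296, 268, 229, 251 and 214 in peri-infarct tissue. The ranges met closely without overlap (log2 fold change -0.43 ± 0.11, SE, adjusted p = 0.016). Scg2 CPM was tightly grouped in contralateral tissue, at 226, 206, 216, 215 and 227 in replicates 1 to 5. It spread more widely in peri-infarct tissue, at 207, 186, 115, 159 and 156, with replicate 1 inside the contralateral range (log2 fold change -0.42 ± 0.13, SE, adjusted p = 0.038). The Scg2 call was lost in 6 of 10 fits with 1 library left out (peri-infarct replicates 4 or 5, contralateral replicates 1, 2, 3 or 5), with adjusted p of 0.0659 to 0.0929 and log2 fold changes that stayed negative. Without contralateral replicate 1, the library with striatum markers, 3 members passed.

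The other 6 members did not pass in vehicle mice. Gap43 was the nearest to the threshold (log2 fold change 0.48 ± 0.18, SE, adjusted p = 0.0797), with CPM of 156, 137, 148, 265 and 211 in contralateral and 206, 287, 235, 246 and 314 in peri-infarct tissue. Contralateral replicates 4 and 5 reached into the peri-infarct range, and without contralateral replicate 4 the log2 fold change was 0.65 with an adjusted p of 0.0112. With the animal as a block, its adjusted p was 0.0497. Bdnf had a log2 fold change of -0.32 ± 0.18 (SE, adjusted p = 0.231), Homer1 of -0.23 ± 0.14 (0.255), Nptx2 of -0.18 ± 0.17 (0.483), Nptx1 of -0.16 ± 0.17 (0.545) and Inhba of 0.17 ± 0.25 (0.664). Nptx1 CPM was 348, 386, 458, 516 and 533 in contralateral and 416, 426, 260.0, 370.3 and 550.3 in peri-infarct tissue, and the highest of the 10 libraries was a peri-infarct one, replicate 5. Homer1 CPM was 192, 118, 137, 189 and 177 in contralateral and 156, 129, 117, 147 and 149.6 in peri-infarct tissue, with the peri-infarct libraries all within or just below the contralateral range. Bdnf contralateral CPM was 27.8, 35, 39.6, 49.6 and 46.1, a range that the peri-infarct libraries overlapped.

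The same regions were then compared in mice given HPBCD, where 8 of the 10 members passed. Homer1, Nptx1, Nptx2, Vgf, Scg2, Bdnf and Cbln4 fell and Ntrk2 rose. These counts stand against a high background, since 54.6% of 16047 genes passed in this comparison, 30.3% higher and 24.3% lower. The groups did not overlap for 7 members (all of those called except Bdnf), against 42.5% of all genes. The members' median log2 fold change was -0.81, against 0.03 over all genes tested. Without contralateral replicate 4, the library with many ambiguous reads, 8 members again passed, as they did without peri-infarct replicate 2, the library with high hippocampus markers.

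Cbln4 again had the largest fold change. Its CPM in HPBCD replicates 1 to 5 was 25.9, 28.2, 26.1, 31.4 and 40.7 in contralateral and 3.45, 8.88, 3.59, 2.43 and 6.37 in peri-infarct tissue. No other member had so large a change (log2 fold change -2.61 ± 0.30, SE, adjusted p = 1.41e-05). The pentraxin Nptx2 had CPM of 53.9, 43.9, 35.8, 43.5 and 50 in contralateral and 23.1, 29.9, 15.2, 17 and 23.5 in peri-infarct tissue. Every peri-infarct library was lower than every contralateral one (log2 fold change -1.06 ± 0.18, SE, adjusted p = 0.000289). Its relative Nptx1 had CPM of 419.7, 497, 464, 498 and 402 in contralateral and 277, 370.4, 205, 96.1 and 190.4 in peri-infarct tissue. Peri-infarct libraries spread widely, with replicate 2 the highest and replicate 4 the lowest (log2 fold change -0.99 ± 0.27, SE, adjusted p = 0.00799).

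Vgf CPM in HPBCD replicates 1 to 5 was 316, 221, 249, 214 and 267 in contralateral and 139, 146, 117, 86.9 and 151 in peri-infarct tissue, without overlap (log2 fold change -0.99 ± 0.16, SE, adjusted p = 0.000197). Scg2 CPM was 203, 189, 199.8, 213 and 209 in contralateral and 121, 137, 109.8, 97.7 and 146 in peri-infarct tissue, again without overlap (log2 fold change -0.73 ± 0.11, SE, adjusted p = 0.000149). Both granins thus sat lower beside the infarct in each HPBCD library than in any contralateral library of that treatment. The scaffold gene Homer1 had CPM of 144, 217, 179.9, 211 and 205 in contralateral and 109.8, 132, 92, 74.8 and 122 in peri-infarct tissue, also without overlap (log2 fold change -0.84 ± 0.16, SE, adjusted p = 0.000736). Ntrk2 CPM was 504, 692, 667, 713 and 594 in contralateral and 1023, 956, 1039, 1025 and 1005 in peri-infarct tissue. The peri-infarct libraries were close to each other and all above the contralateral range (log2 fold change 0.67 ± 0.11, SE, adjusted p = 0.000169).

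Bdnf gave the least even pattern. Its CPM in HPBCD replicates 1 to 5 was 34.5, 33.7, 34.6, 31.4 and 39.9 in contralateral and 15.5, 40.5, 13.1, 14 and 17.4 in peri-infarct tissue. Peri-infarct replicate 2 was the highest library of both HPBCD groups, and the other 4 were under every contralateral library (log2 fold change -0.78 ± 0.28, SE, adjusted p = 0.0318). That library also had the highest hippocampus and excitatory neuron markers of its group, and their part in this value was not tested. Without it the log2 fold change was -1.23 with an adjusted p of 1.22e-06. The call was lost in 5 of the 10 fits with 1 library left out (peri-infarct replicates 1 or 3, contralateral replicates 1, 3 or 5), at adjusted p of 0.0501 to 0.0657. Inhba (log2 fold change -0.18 ± 0.25, SE, adjusted p = 0.562) and Gap43 (log2 fold change 0.06 ± 0.14, SE, adjusted p = 0.751) did not pass.

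Within a treatment, same-numbered libraries of both regions come from 1 animal, so the difference between regions can be read in each mouse. Vgf, Scg2 and Cbln4 were lower and Ntrk2 was higher beside the infarct in 5 of 5 vehicle mice and in 5 of 5 HPBCD mice. Nptx1 was lower in 2 of 5 vehicle mice and in 5 of 5 HPBCD mice. Its median log2 difference was 0.05 in vehicle and -1.08 in HPBCD mice. Nptx2 and Homer1 were each lower in 4 of 5 vehicle and 5 of 5 HPBCD mice, with median log2 differences for Nptx2 of -0.22 and -1.22. Bdnf was lower in 4 of 5 mice of both treatments. Gap43 was higher in 4 of 5 vehicle mice (median 0.58) and in 3 of 5 HPBCD mice (median 0.25). The regions did not overlap for Vgf, Cbln4 and Ntrk2 in either treatment, nor for Scg2, Nptx1, Nptx2 and Homer1 in HPBCD mice. In these cases any pairing gives 5 of 5, so the count adds nothing to the comparison of groups.

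**Figure D3:**
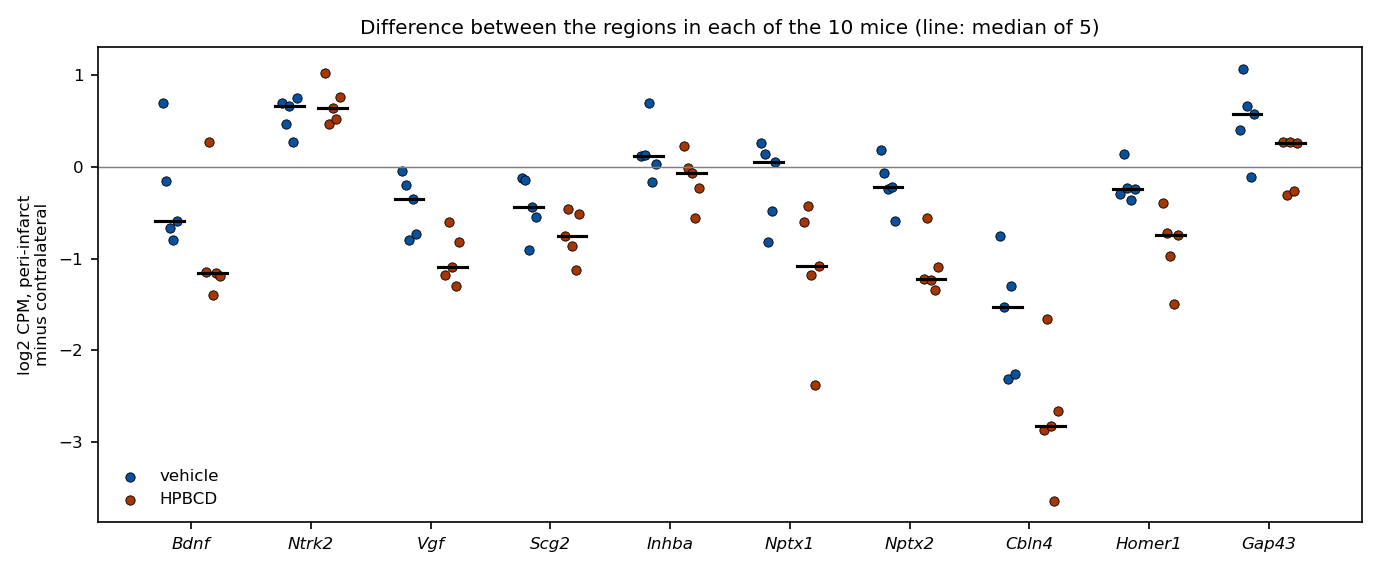
Difference in log2 CPM between peri-infarct and contralateral tissue of each mouse (points) for vehicle (blue) and HPBCD (brown), with the median of 5 mice as a line. Vgf, Scg2 and Cbln4 lie below 0 and Ntrk2 above 0 in all 10 mice.

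The third comparison set HPBCD against vehicle within peri-infarct tissue, where 3 members passed and all fell. They were Vgf, Nptx2 and Gap43. Over 16224 genes tested, 21.4% passed, 12.4% higher and 9.00% lower with HPBCD. The groups did not overlap for 1 member (Vgf), against 13.4% of all genes. The members' median log2 fold change was -0.55, against 0.01 over all genes, and 8 of the 10 had a negative value. This comparison shares its libraries with the 2 comparisons of regions.

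Vgf CPM was 296, 268, 229, 251 and 214 in vehicle replicates 1 to 5 and 139, 146, 117, 86.9 and 151 in HPBCD replicates 1 to 5. The highest HPBCD library was under the lowest vehicle library, and the means were 252 ± 32.5 and 128 ± 26.4 CPM (SD, n = 5; log2 fold change -0.98 ± 0.15, SE, adjusted p = 0.0128). Vgf ranked 52 of all genes tested by p-value. Nptx2 CPM was 50.2, 45, 50, 41.3 and 26.7 with vehicle and 23.1, 29.9, 15.2, 17 and 23.5 with HPBCD. The groups overlapped through vehicle replicate 5 and HPBCD replicate 2 (log2 fold change -0.97 ± 0.21, SE, adjusted p = 0.0162). Gap43 CPM was 206, 287, 235, 246 and 314 with vehicle and 215, 144, 170.4, 126 and 160.4 with HPBCD. HPBCD replicate 1 lay just above the lowest vehicle library (log2 fold change -0.67 ± 0.15, SE, adjusted p = 0.0182). These 3 calls held in each of the 10 fits with 1 library left out, with adjusted p up to 0.0393 for Vgf, 0.0464 for Nptx2 and 0.0497 for Gap43.

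Of the 7 members that did not pass, Scg2 (-0.43 ± 0.16, SE, adjusted p = 0.0699), Nptx1 (-0.83 ± 0.31, 0.0739), Homer1 (-0.40 ± 0.15, 0.0767) and Bdnf (-0.67 ± 0.31, 0.126) had negative log2 fold changes. Bdnf had 45, 31.5, 24.8, 28.6 and 30.6 CPM with vehicle, all but 1 library (replicate 2) of the HPBCD group lying below that range. Without HPBCD replicate 2 all 4 of these members passed in addition, at adjusted p of 0.00969 (Bdnf), 0.0182 (Nptx1), 0.0242 (Homer1) and 0.0469 (Scg2), for a count of 7. This is the library with the highest hippocampus and excitatory neuron and the lowest striatum markers of its group, and their part in these calls was not tested. Without vehicle replicate 3 Nptx1 (0.0449) and Scg2 (0.0206) passed in addition, for a count of 5. That library had the highest microglia, astrocyte and striatum and the lowest pan-neuronal markers of its group, and their part in these calls was not tested. The shares of all genes that passed in these fits are not given here. A rise over all genes therefore cannot be told apart from a rise particular to the members. HPBCD replicate 2 was the highest of its group for 5 members and replicate 4 the lowest for 6, while vehicle replicate 1 was the highest of its group for 7. HPBCD replicate 4 also had the lowest pan-neuronal and the highest microglia and astrocyte markers of its group, and their part in these values was not tested. Ntrk2 (0.16 ± 0.10, 0.24), Inhba (0.08 ± 0.23, 0.83) and Cbln4 (-0.15 ± 0.38, 0.802) did not pass under any alternative.

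**Figure D4:**
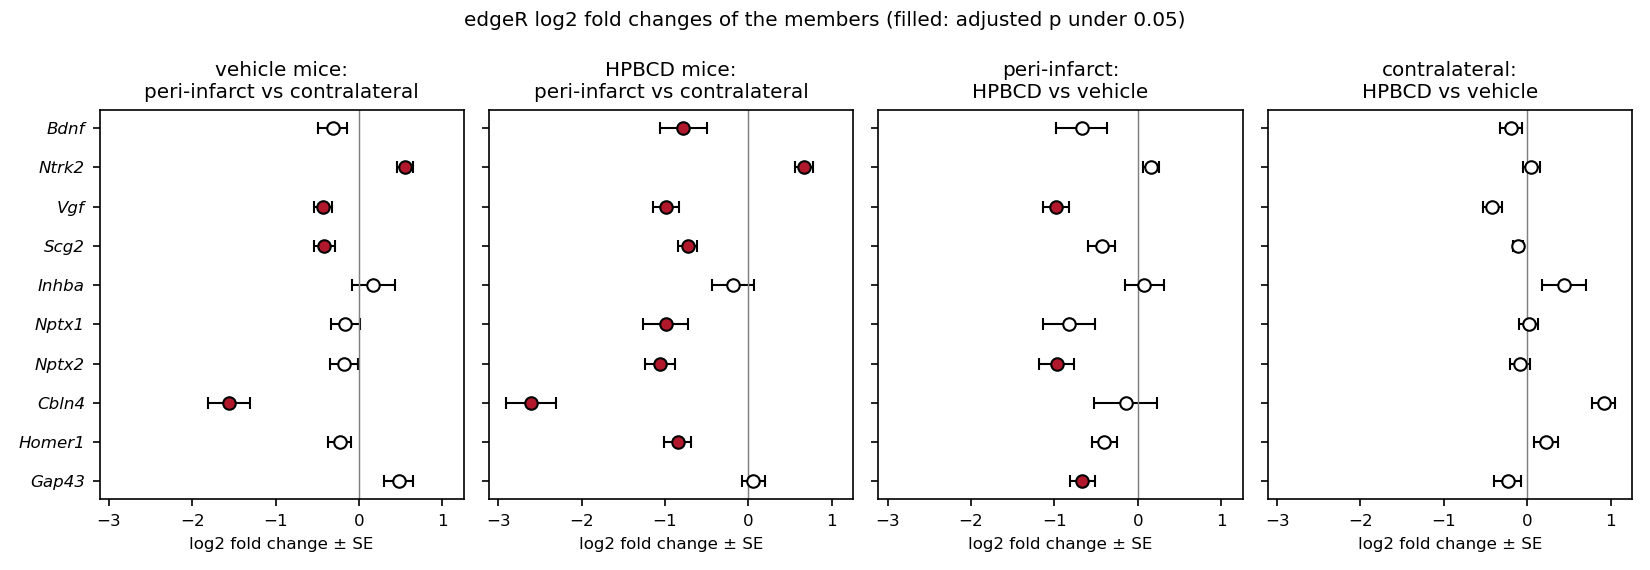
edgeR log2 fold changes (horizontal axis, bars ± SE, 5 libraries per group) of the 10 members in 4 comparisons, with filled points for an adjusted p under 0.05. Filled points number 4, 8, 3 and 0 from left to right.

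In contralateral tissue, HPBCD against vehicle, none of the members passed in edgeR, where 0.00% of 15469 genes did. At an unadjusted p under 0.05 there were 2 members and 1224 genes. Those members were Cbln4 and Vgf. Cbln4 ranked first of all genes tested. Its CPM was 14.4, 16.5, 13.3, 16.1 and 19.8 with vehicle and 25.9, 28.2, 26.1, 31.4 and 40.7 with HPBCD in replicates 1 to 5. All HPBCD libraries were higher, and the means were 16 ± 2.47 and 30.5 ± 6.17 CPM (SD, n = 5). The log2 fold change was 0.92 ± 0.14 (SE), with an unadjusted p of 1.99e-05 and an adjusted p of 0.236 over all genes. Cbln4 was the 1 member whose groups did not overlap, against 1.51% of all genes.

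The Cbln4 call in contralateral tissue depended on the fit. The adjusted p was 1.17e-05 with DESeq2 and 0.0187 in edgeR with no filter on low counts. It was 0.0708 with limma voom and 0.0829 to 0.798 with 1 library left out, 0.798 without the HPBCD library with many ambiguous reads and 0.248 without the vehicle library with striatum markers. The log2 fold change stayed between 0.79 and 1.01 in all of these. Vgf did not pass (log2 fold change -0.42 ± 0.11, SE, adjusted p = 0.482), at 305, 307, 397, 319.8 and 355 CPM with vehicle and 316, 221, 249, 214 and 267 CPM with HPBCD. HPBCD replicate 1 was inside the vehicle range. The remaining 8 members had log2 fold changes from -0.24 (Gap43) to 0.44 (Inhba).

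Whether the difference between regions itself differed between treatments was tested as an interaction over the 20 libraries. Nptx2 was the 1 member that passed (log2 fold change -0.90 ± 0.25, SE, adjusted p = 0.033). It fell beside the infarct with HPBCD and did not pass in vehicle mice. In this test 9.41% of 16758 genes passed, 4.38% with a negative value. Of the members 9 had a negative value, with a median of -0.53 against 0.01 over all genes. The pan-neuronal markers moved with them, since 10 of 10 had a negative value (median -0.60), 5 passing in edgeR and 10 in DESeq2, and their part in the members' values was not tested. Vgf (-0.57 ± 0.20, SE, adjusted p = 0.067), Homer1 (-0.63 ± 0.22, 0.0709), Cbln4 (-1.07 ± 0.41, 0.0941) and Nptx1 (-0.85 ± 0.34, 0.11) did not pass. Of the 4 members that fell beside the infarct in HPBCD but did not pass in vehicle mice (Homer1, Nptx1, Nptx2 and Bdnf), the test of the difference thus passed for Nptx2 alone.

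The Nptx2 interaction was close to the threshold. It was lost in 11 of 20 fits with 1 library left out, at adjusted p of 0.0507 to 0.0664, namely without vehicle peri-infarct replicates 1 or 2, vehicle contralateral replicates 1, 2 or 5, HPBCD peri-infarct replicates 3 or 4, or HPBCD contralateral replicates 1, 2, 4 or 5. Its log2 value stayed between -1.01 and -0.78. Without HPBCD peri-infarct replicate 2 the count rose to 6 members, and without vehicle peri-infarct replicate 3 to 5. For these fits too the shares of all genes that passed are not given, so the rise may not be particular to the members. With the animal as a block 2 members passed, Nptx2 and Homer1 (-0.66, adjusted p = 0.0391).

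Markers of cell types moved with these results. The 10 pan-neuronal markers summed to 10980.2 to 12529 CPM in vehicle contralateral, 6624 to 9159 in vehicle peri-infarct, 12493 to 13725 in HPBCD contralateral and 3829 to 6759.8 in HPBCD peri-infarct libraries. The ranges of the 2 regions did not overlap in either treatment, and of the 10 markers 7 fell beside the infarct in vehicle mice, 10 in HPBCD mice and 7 with HPBCD in peri-infarct tissue. The 7 astrocyte markers, of interest for Ntrk2, summed to 4763 to 5664, 5674 to 10265, 4662 to 5805 and 8114 to 11206 CPM in the same order, and 4 of 7 rose beside the infarct in each treatment.

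Markers of other cells and of tissue outside the cortex were followed as well. The 6 meningeal and fibroblast markers, such as Col1a1 and Dcn, summed to 49.1 to 273 CPM in vehicle and 311 to 992 CPM in HPBCD peri-infarct libraries, and 6 of 6 rose with HPBCD. The 8 striatum markers summed to 333 to 1911 CPM in vehicle and 645 to 2005 CPM in HPBCD peri-infarct libraries. In contralateral tissue they summed to 197 to 283 CPM in 4 vehicle libraries and 3377 CPM in replicate 1, and to 205 to 249 CPM with HPBCD. All 8 passed as higher beside the infarct in HPBCD mice and 0 in vehicle mice, where all peri-infarct libraries were above the 4 contralateral libraries other than replicate 1. The 6 hippocampus markers summed to 119 to 188 CPM in vehicle and 126 to 139 CPM in HPBCD contralateral libraries, and to 194 to 390.0 and 280.4 to 573 CPM in the peri-infarct libraries, without overlap between regions. Of the 5 tested, 2 rose beside the infarct in vehicle and 4 in HPBCD mice. Single genes weigh unequally in this sum, with means in HPBCD contralateral libraries of 56.7 CPM for Zbtb20, 50.5 for Wfs1 and 14.9 for Prox1. The 5 ependyma markers, such as Foxj1, of the cells that line the ventricles, summed to 22 to 53.9 CPM in vehicle and 80.4 to 158 CPM in HPBCD peri-infarct libraries, without overlap, and to 6.15 to 40.7 and 7.19 to 12.2 CPM in the contralateral libraries. Beside the infarct 1 of the 4 tested rose in vehicle mice and 5 of 5 in HPBCD mice, and 3 of 5 rose with HPBCD in peri-infarct tissue. In the interaction 4 of 5 passed with a positive value. The 6 oligodendrocyte markers summed to 4473 to 11658 CPM in contralateral and 6035 to 14525 CPM in peri-infarct libraries of vehicle mice, where 0 of 6 passed in edgeR (0 at an unadjusted p under 0.05) and 0 in DESeq2. In HPBCD mice they summed to 5492 to 6929.9 and 12444 to 19140.4 CPM, and 6 of 6 rose. With HPBCD in peri-infarct tissue 1 of 6 rose in edgeR and 4 in DESeq2. All 7 microglia and macrophage markers rose beside the infarct in both treatments. In the interaction 4 of 6 meningeal markers, 1 of 6 hippocampus, 2 of 6 oligodendrocyte, 1 of 7 astrocyte and 1 of 5 endothelial markers passed with a positive value, and 3 of 7 excitatory neuron, 1 of 7 inhibitory neuron and 2 of 8 cortical layer markers with a negative value. The 6 thalamus markers moved in both directions, with 2 higher and 2 lower beside the infarct in each treatment (medians 0.07 and -0.12) and 2 lower in the interaction. They summed to 92.9 to 129 and 94.8 to 123 CPM in contralateral and peri-infarct libraries of vehicle mice and to 120.1 to 157 and 88.6 to 126 CPM in HPBCD mice. Of 7 inhibitory neuron markers 3 fell beside the infarct in vehicle and 6 in HPBCD mice, and of 7 excitatory neuron markers 1 and 6. Of 8 cortical layer markers 2 fell in vehicle mice, and 3 fell and 2 rose in HPBCD mice. Of 5 markers of oligodendrocyte precursors 3 and 4 rose, and of 5 endothelial markers 0 passed in vehicle mice in edgeR (0 at an unadjusted p under 0.05) or DESeq2 and 1 rose and 1 fell in HPBCD mice. The part of these shifts in the members' results was not tested.

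**Figure D5:**
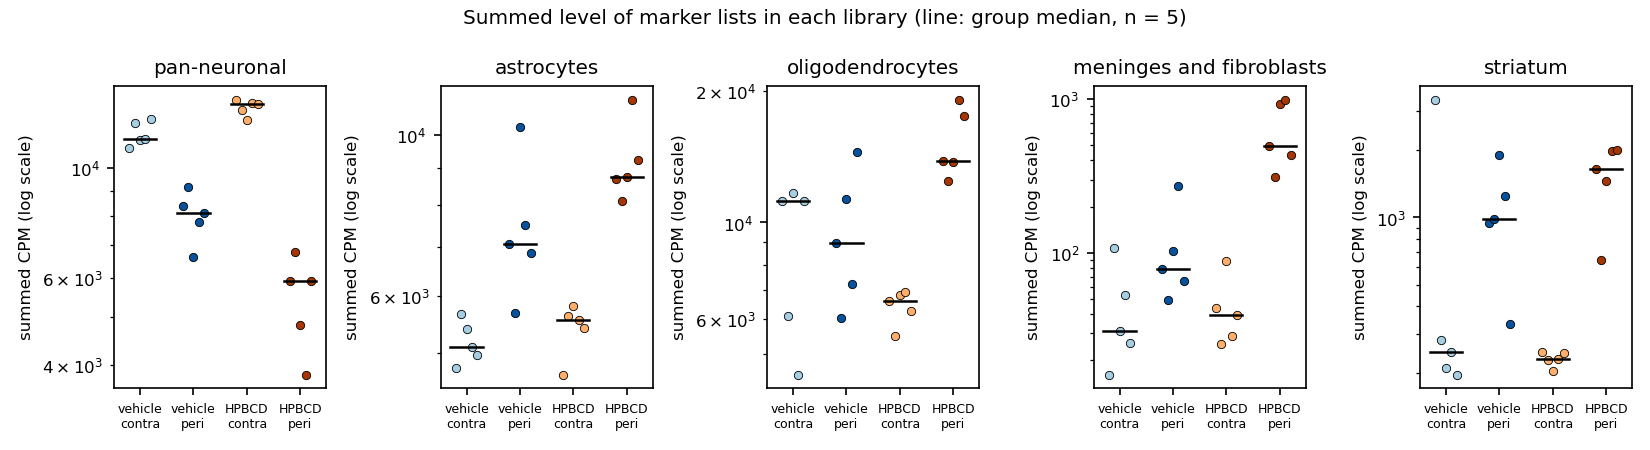
Summed CPM (log axes) of 5 marker lists in each library (points, in replicate order) with the group median as a line (n = 5). The group median of the pan-neuronal sums is lowest in HPBCD peri-infarct libraries, whose replicate 2 lies above vehicle peri-infarct replicate 3, meningeal sums are highest in all 5 HPBCD peri-infarct libraries, and vehicle contralateral replicate 1 has the highest striatum sum.

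The members were also set against the neuronal markers of the same library, as CPM per 1000 CPM of the 10 pan-neuronal markers, a ratio chosen after the values were seen and given as a description. Snap25 weighs most in this sum, with means of 4774 CPM in vehicle and 5684 CPM in HPBCD contralateral libraries. It had the most negative interaction value of these markers (-0.93 against a median of -0.60), and its part in the ratios was not tested. On this scale Cbln4 was the 1 member of the 7 that fell in HPBCD mice to remain lower beside the infarct on average. Its ratio was 1.36 ± 0.15 in contralateral and 0.672 ± 0.252 in peri-infarct libraries of vehicle mice, and 2.3 ± 0.441 and 0.871 ± 0.313 in HPBCD mice (SD, n = 5). For Vgf the ratio was 28.8 ± 3.62 and 31.6 ± 3.74 in the vehicle groups and 19.1 ± 2.85 and 23.5 ± 1.51 in the HPBCD groups, higher on average beside the infarct in both.

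Between treatments in peri-infarct tissue, Vgf remained separate on this scale. Its ratio ranged over 26.4 to 35.5 in vehicle and 21.6 to 25.6 in HPBCD libraries. The same held in contralateral tissue, at 25 to 34.8 and 15.8 to 23.1, so the separation was not particular to the tissue beside the infarct. For Nptx2 the ratios were 5.41 ± 1.55 and 3.98 ± 0.526, and for Gap43 32.4 ± 5.29 and 30.6 ± 6.3, with overlapping ranges. Homer1 (17.6 ± 1.97 and 19.5 ± 0.791) and Scg2 (20.4 ± 2.7 and 22.8 ± 2.41) had a higher mean with HPBCD on this scale. Ntrk2, which is not made by neurons alone, had ratios of 114 ± 23.4 and 194 ± 49.1.

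Genes that work with the members were followed as 8 lists. Over all 8, 17 of 97 genes tested passed beside the infarct in vehicle mice (20.2% of all genes), 51 of 97 in HPBCD mice (54.6%), 24 of 97 with HPBCD in peri-infarct tissue (21.4%) and 14 of 98 in the interaction (9.41%). The counts of single lists are to be read against these shares, and many lie near or below them. Among 14 genes of granins, prohormone processing and dense-core vesicles, which act with Vgf and Scg2, 4 fell and 1 rose beside the infarct in vehicle mice, and 10 fell and 1 rose in HPBCD mice (medians -0.21 and -0.93). With HPBCD in peri-infarct tissue 6 of 14 fell and none rose (median -0.49). The 6 included the granin Chga (-0.70, adjusted p = 0.0173) and the prohormone convertases Pcsk1 (-0.97, 0.0387) and Pcsk2 (-0.72, 0.0174), which cut granins into peptides. Scg5, a chaperone of Pcsk2, fell in vehicle (-0.67, 0.00286) and in HPBCD mice (-1.13, 1.45e-05). The 1 gene that rose in each treatment was Cpe, a carboxypeptidase of the same pathway, at 0.36 (0.0207) and 0.54 (0.000512).

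The partners of pentraxins and cerebellins were listed with 16 genes, of which 15 were tested. In vehicle mice 1 fell and 1 rose beside the infarct, and in HPBCD mice 5 fell and 2 rose (medians 0.17 and -0.28). Cbln2, a relative of Cbln4, fell in both, at -1.25 (adjusted p = 0.00768) and -2.54 (9e-07). C1ql1, a C1q-like secreted protein, rose in both, at 0.75 (0.00391) and 1.59 (5.52e-07). With HPBCD in peri-infarct tissue 6 fell and 1 rose (median -0.55), among them the pentraxin receptor Nptxr (-0.93, 0.0249), C1ql3 (-0.68, 0.029) and the neurexin Nrxn2 (-0.62, 0.015). In the interaction 5 fell and 1 rose, with Cbln2 at -1.30 (0.0278) and the AMPA receptor subunit Gria4 at -0.71 (0.0276).

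Among 12 growth cone and axon growth genes, 11 tested, directions were mixed beside the infarct, with 5 up and 1 down in vehicle and 5 up and 5 down in HPBCD mice (medians 0.08 and -0.35). Atf3, a transcription factor of injured neurons that other cells also make, was 2.06 (adjusted p = 0.0148) and 3.52 (8.92e-06) higher on the log2 scale. Marcksl1, an actin-regulating membrane protein, rose by 1.09 (0.00944) in vehicle mice, and Nrn1, an activity-regulated neuritin, fell by 1.77 (0.00015) in HPBCD mice. With HPBCD in peri-infarct tissue 4 fell and 1 rose (median -0.41), with Nrn1 at -1.11 (0.0231), Tubb3, a neuronal tubulin, at -0.72 (0.0168) and Stmn2, a tubulin regulator of growth cones, at -0.68 (0.0282).

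The neurotrophins and receptors other than Bdnf and Ntrk2 (10 listed, 9 tested) gave no call in vehicle mice or with HPBCD in peri-infarct tissue in edgeR, with 1 and 2 genes at an unadjusted p under 0.05 and 1 and 0 called by DESeq2. In HPBCD mice 2 rose and 2 fell beside the infarct (median 0.14). The sorting receptor Sorcs3 fell (-0.70, 0.0192). Among 13 Trk adaptors and effectors, 1 rose in vehicle mice, 3 rose and 3 fell in HPBCD mice, and 1 rose and 2 fell with HPBCD in peri-infarct tissue (medians 0.11, -0.14 and -0.11). The 6 calls among 13 in HPBCD mice are a share below the 54.6% of all genes, and the 3 with HPBCD a share near the 21.4%. The riser in the last was the adaptor Shc1 (1.08, 0.0235), and the others were Frs3 (-0.42, 0.0177) and Shc2 (-0.40, 0.0467).

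The activin and inhibin list of 12 genes, 11 tested, had 1 call in vehicle mice, the activin antagonist Fst (-0.75, adjusted p = 0.0258), and 2 up and 4 down in HPBCD mice (medians 0.23 and 0.06). In the latter the subunit gene Inhbb rose by 0.85 (0.000419) on the log2 scale. With HPBCD in peri-infarct tissue the receptors Acvr1b (-0.51, 0.0225) and Acvr2a (-0.44, 0.0238) fell and Smad4, a shared signal transducer, rose (0.30, 0.0263; list median -0.18). In the Homer family list of 8 genes, Homer3 rose beside the infarct in vehicle (1.01, 0.0151) and HPBCD mice (2.07, 3.57e-05), while Homer1 itself fell in the latter, and Shank1 (-0.79, 0.0197) and Shank2 (-0.53, 0.0289) fell in HPBCD mice (list medians 0.21 and -0.17). None of these 8 passed with HPBCD in peri-infarct tissue in edgeR (4 at an unadjusted p under 0.05, 2 called by DESeq2, median -0.30).

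The 16 activity-regulated transcription factors and effectors are genes induced within minutes to hours of neuronal firing or act on such genes. Egr1 was the 1 call in vehicle mice (-0.73, adjusted p = 0.0389; list median -0.20). In HPBCD mice Egr1 (-1.08, 0.000593), Nr4a2 (-0.92, 0.00647) and Arc (-0.89, 0.0183) fell and Egr2 rose (1.63, 0.0013; list median -0.16). With HPBCD none passed in edgeR in peri-infarct or in contralateral tissue, with 6 and 8 genes at an unadjusted p under 0.05 and 3 and 3 called by DESeq2, and medians of -0.42 and -0.47. Over all 8 lists, no gene passed in contralateral tissue in edgeR, with 15 of 96 at an unadjusted p under 0.05.

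For each member the gene with the most similar pattern was found as the smallest root mean square difference of mean-centred log2 CPM over the 20 libraries, among 11793 other genes with at least 5 CPM (11794 for Inhba). They were Faah for Bdnf (0.21), Gpr162 for Vgf (0.21), Ube2ql1 for Nptx1 (0.15), Prmt8 for Nptx2 (0.19), Rnf220 for Scg2 (0.13), Paqr9 for Homer1 (0.14), Paqr8 for Inhba (0.27), Jun for Ntrk2 (0.11), Acvr2a for Gap43 (0.17) and Nefh for Cbln4 (0.38). The members themselves spread by 0.35 (Ntrk2) to 1.23 (Cbln4) on that measure. Among the members Scg2 and Homer1 were the closest pair at 0.24, followed by Vgf and Nptx2 at 0.25. Many other genes were nearer to Scg2 and Homer1, since of 11793 genes Homer1 was rank 1072 for Scg2 and Scg2 rank 362 for Homer1. Vgf was rank 6 for Nptx2, and Nptx2 rank 26 for Vgf. Inhba, with CPM of 1.97 to 3.47 in vehicle contralateral, 2.01 to 3.78 in vehicle peri-infarct, 1.9 to 5.02 in HPBCD contralateral and 2.23 to 3.37 in HPBCD peri-infarct libraries, passed in none of the 5 tests, and its groups overlapped throughout.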

How the data were processed

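Fresh tissue was kept in RNAlater, and per the labels stranded mRNA libraries were made with the TruSeq kit. Per the submitters' processing notes and the study's methods, reads were demultiplexed with bcl2fastq 2.19, trimmed with Trimmomatic 0.32, aligned to GRCm38 with STAR 2.5.2b and counted per Ensembl gene with HTSeq. The authors deposited the raw counts of each library as a separate table, not normalized. The version, strand setting and annotation release of the counting are not given in the sources used here. Lines that name no gene held 25.1 to 40.1% of read pairs and entered neither library sizes nor tests.

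Symbols, exons and coordinates were taken from GENCODE M21, which held 45229 of the 46078 listed genes and 99.93% of gene counts. Groups were taken from sample titles. Tests were edgeR quasi-likelihood F tests (edgeR 4.0.16, R 4.3.3), with TMM factors, filterByExpr and Benjamini-Hochberg adjustment over all genes tested (threshold 0.05). Each comparison of a pair of groups used its 10 libraries, and the interaction used 20. The SE was obtained from the log2 fold change and its F statistic, as the first over the root of the second. CPM is TMM-scaled over the 20 libraries, log2 CPM has a prior count of 2, and TPM was computed over exon-union length.

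Same-number libraries of both regions within a treatment carry 1 animal identifier in their deposited names, on which the pairing rests. Their deviations from group means correlated with a mean r of 0.09 over 10 pairs, 4 of them over 0.1. Between treatments the number is a name only.

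The members, lists and tests were chosen with earlier results of these data known. Named genes were the members, up to 3 called genes per list and comparison with the largest change, and the most similar gene of each member; Cpe and Arc were added after their values were seen. A gene that this rule names is not reported here. Alternatives were DESeq2 1.42.0, limma 3.58.1 voom with quality weights, RLE and upper quartile factors, no filter on low counts, all groups in 1 fit, a replicate block, and each library left out in turn. The edgeR step was tested on simulated data.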

Additional observations from a re-analysis of the deposited data

Results flagged for a closer look

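Bdnf in HPBCD peri-infarct replicate 2 was 40.5 CPM, a value far from the other 4 libraries of its group, with a gap to the next library of 0.842 of the group's range. That library also stood apart in its hippocampus markers (573 CPM against 280.4 to 329.6 in the other 4), striatum markers (645 against 1455 to 2005) and excitatory neuron markers (6001 against 2838 to 4479), and their part in this value was not tested. Inhba in vehicle contralateral replicate 1 was 3.47 CPM, with a gap of 0.753 of the range. This vehicle library held high striatum markers, and their part was not tested. These were 2 of 40 groups of 5 libraries examined, and chance alone marks about 1 group in 20.

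Nptx2 was the 1 member that passed the test of whether the difference between regions differed between treatments, with an interaction of -0.90 on the log2 scale and an adjusted p of 0.033 (edgeR). The call was lost in 11 of 20 fits with 1 library left out, over which 0 to 6 members passed, and with the animal as a block Homer1 passed as well. Nptx2 was lower beside the infarct in 4 of 5 vehicle and 5 of 5 HPBCD mice.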

How the results depend on the processing

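Over the alternatives, 862 of 940 values of single members kept their direction and their side of the threshold, 22 lost and 43 gained a call, and 13 changed sign, none of which passed the test. In the vehicle region comparison 3 to 5 members passed over the alternatives and in the HPBCD region comparison 7 to 8. In peri-infarct tissue, HPBCD against vehicle, the count of 3 members became 6 with DESeq2, 7 with limma voom, 6 with all groups in 1 fit and 6 with the replicate block, where the number is only a name, and it was 3 to 7 with 1 library left out. In contralateral tissue the count of 0 became 1 (Cbln4) with DESeq2, with no filter and with the replicate block (0.033), and it was 0 in every fit with 1 library left out. For the interaction the count of 1 became 3 with DESeq2, 5 with limma voom and 2 with the animal as a block, and it was 0 to 6 with 1 library left out. The animal block gave 5 members in vehicle and 8 in HPBCD mice. Among the listed pathway genes, DESeq2 changed the calls of edgeR in peri-infarct tissue from 3 to 7 Trk adaptors, from 0 to 2 Homer family genes and from 0 to 3 activity-regulated genes (also in contralateral tissue), in vehicle mice from 1 to 3 activin genes, 1 to 2 Trk adaptors and 0 to 1 neurotrophin genes, and in the interaction from 1 to 3 Trk adaptors, 3 to 5 granin genes, 0 to 2 Homer family and 0 to 1 neurotrophin genes. The shares of all genes that passed under these alternatives are not given here. More calls over all genes therefore cannot be told apart from a gain particular to the members or lists. The causes of these changes were not tested.

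Values that changed sign were small. Gap43 in HPBCD mice was -0.02 with no filter and -0.07 to 0.13 with 1 library left out, and Inhba there was -0.34 to 0.01. With HPBCD in peri-infarct tissue Cbln4 was -0.48 to 0.08 and Inhba -0.01 to 0.24. In contralateral tissue Nptx1 was -0.06 to 0.09 and Nptx2 -0.15 to 0.01. Other scaling factors moved the median of all genes by at most 0.03 on the log2 scale. Inhba was the member with the fewest counts, 36 in its lowest library.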
